A study of Mus musculus with 6 samples.

Results

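Collagens, laminins and integrins were read in day 2 epiblast-like cells (EpiLCs) with and without Smad2 and Smad3, together with genes that build, crosslink or bind the same matrix. Of the 24288 gene symbols measured, 93 belonged to these families. They were defined by gene name, in a choice made with earlier results of these data known. It took every Col gene with a chain number and every Lama, Lamb, Lamc, Itga and Itgb gene. The lysyl oxidases Lox and Loxl1 to Loxl4 and the single genes Fn1, Sparc, Dcn, Nid1, Nid2, Hspg2 and Vtn completed it. The study compared 3 wild-type (WT) libraries with 3 libraries of Smad2/3 double knockout (DKO) cells, to ask which transcripts depend on the intracellular arm of Nodal and activin signalling as embryonic stem cells (ESCs) leave the naive state. WT cells were the feeder-free male CCE line. DKO cells were 1 clone, KT15.1F6, of Smad2 tm1Rob/tm1Rob ESCs in which the first exon of Smad3 was removed with Cas9 nickase. Both were kept in medium with LIF and kinase inhibitors and then grown for 48 h in N2B27 medium with 12 ng/ml Fgf2, 20 ng/ml activin A and serum replacement. The dishes were coated with fibronectin (5 µg/cm2), so the cells of either genotype met this matrix protein whatever their own Fn1 transcript level. Each library was a separate differentiation of its line, and with 1 line per genotype the loss of Smad2 and Smad3 cannot be told apart from other differences between the lines.

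The extracellular matrix under an epithelium such as the epiblast is a basement membrane. Laminins, trimers of an alpha, a beta and a gamma chain, form one sheet and type IV collagen forms another, and nidogens and the proteoglycan perlecan (Hspg2) join them. Integrins, dimers of an alpha and a beta chain, hold the cell to this sheet and to fibronectin or fibrillar collagen. Fibrillar collagens and their crosslinking enzymes, the lysyl oxidases, are better known from connective tissue, where TGF-beta family signals through Smad2 and Smad3 raise many of them.

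The values are normalized reads, that is, reads over the whole gene body divided by a size factor for each library. A value with ± is the mean with its SD over n = 3 libraries, and a log2 fold change is DKO over WT with its standard error. Counted reads, summed over 1 entry per gene symbol, were even, from 57644143 to 63046034 per library. For the 47 members averaging 100 normalized reads or more, the median coefficient of variation over replicates was 4.94% in WT and 4.58% in DKO. Smad3 was at 839 ± 37.0 in WT and 23.6 ± 6.16 in DKO (SD, n = 3 each) and fell. Smad2, at 4520.3 ± 86.3 in WT and 5062 ± 109 in DKO, was not lower, and its reads do not show whether the allele yields protein. All 10 epiblast markers examined were present in both groups, among them Pou5f1 at 21846 ± 496 in WT and 20761 ± 344 in DKO. By the rule for calling a change given below, 4 of 10 were called (40%, beside 15.4% of all genes tested). Sox2 was higher (log2 fold change 1.47) and Fgf5 lower (-2.02), as were Tdgf1 (-0.93) and Pou3f1 (-0.62), both chosen after their values were seen.

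Upstream sequence is shown for the 4 members that changed, had at least 100 normalized reads in a group, and have 250 bases before the RefSeq start that hold no annotated exon. RefSeq (GRCm38.p6) places these windows at chr2:180225860-180226109 for Lama5 on the minus strand, chr4:63215162-63215411 for Col27a1 on the plus strand, chr16:33829415-33829664 for Itgb5 on the plus strand and chr7:128062390-128062639 for Itgam on the plus strand. Each is printed 5′ to 3′ along its gene, ending 1 base before the start. Capitals mark the letters of 3 motifs. The first is CAGAC, known from Smad binding elements, which reads GTCTG on the other strand. The second is the palindrome GGCGCC, known from GC-rich Smad sites. The third is GGGCGG, the core of Sp1 sites, which reads CCGCCC on the other strand. None of the matches overlapped.
Lama5: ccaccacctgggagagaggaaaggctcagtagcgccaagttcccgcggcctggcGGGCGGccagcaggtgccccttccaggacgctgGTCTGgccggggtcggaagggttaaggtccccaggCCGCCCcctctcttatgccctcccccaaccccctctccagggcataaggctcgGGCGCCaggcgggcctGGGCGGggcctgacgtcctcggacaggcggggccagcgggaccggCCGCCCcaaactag
Col27a1: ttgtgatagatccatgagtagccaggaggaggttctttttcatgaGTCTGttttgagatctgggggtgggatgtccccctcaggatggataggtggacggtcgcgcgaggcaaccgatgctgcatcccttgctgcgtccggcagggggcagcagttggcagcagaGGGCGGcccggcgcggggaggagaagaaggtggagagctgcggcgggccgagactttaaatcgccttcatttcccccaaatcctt
Itgb5: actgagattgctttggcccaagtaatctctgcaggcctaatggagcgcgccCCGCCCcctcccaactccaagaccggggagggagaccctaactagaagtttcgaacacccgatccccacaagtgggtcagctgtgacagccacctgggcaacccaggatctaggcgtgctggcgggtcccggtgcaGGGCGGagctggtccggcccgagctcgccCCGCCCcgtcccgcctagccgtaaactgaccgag
Itgam: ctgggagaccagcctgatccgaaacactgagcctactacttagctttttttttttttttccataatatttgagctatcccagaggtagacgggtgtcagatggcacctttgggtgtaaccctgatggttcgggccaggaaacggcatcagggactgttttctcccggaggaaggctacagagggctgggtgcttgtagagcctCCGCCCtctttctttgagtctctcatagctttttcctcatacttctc
Lama5, which was lower in DKO, held 1 CAGAC, 1 GGCGCC and 4 GGGCGG matches over both strands. Itgb5, which was higher, held 3 GGGCGG matches and no match to the others. Col27a1 held 1 CAGAC and 1 GGGCGG match, and Itgam 1 GGGCGG match. A promoter entry was found for 63 of the 93 members. CAGAC stood in the windows of 31 of the 63 members and in 42.1% of windows of that length at all 27025 promoters. GGCGCC stood in 8 members' windows and in 9.54% of all windows, and GGGCGG in 32 members' windows and in 32.9% of all windows. A match describes the letters only.

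In DKO cells Itga8, Itgb3, Itgb5, Sparc and Col4a2 were among the members that rose, and Lox, Col8a2, Dcn, Col1a2 and Lama5 among those that fell. Of the 93 genes, 84 passed the filter on low reads and were tested. The 9 others, Col4a3, Col4a4, Col8a1, Col10a1, Itgad, Itgax, Itgb6, Loxl4 and Vtn, had at most 14 reads in any library. A gene was called changed at a Benjamini-Hochberg adjusted p under 0.05 over all 17038 genes tested and a fold change over 1.5 in either direction. By this rule 22 of 84 tested members changed (26.2%), beside 15.4% of all genes tested. Of them 12 were higher in DKO, where 7.35% of all genes were, and 10 were lower, where 8.04% were. The median log2 fold change of the tested members was 0.10 and that of all genes tested 0.00. An adjusted p under 0.05 at any fold change was found for 46 of 84 members, and for 53.4% of all genes tested. The 3 WT and 3 DKO values did not overlap for 50 members, where 59.0% of all genes tested behaved so.

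By class, the 4 integrin beta chains that changed were all higher (4 of 7 tested), as were both changed integrin alpha chains (2 of 16). The 3 changed fibrillar collagens were all lower (3 of 11), and so were both changed collagens of the fibril-associated (FACIT), transmembrane and other types (2 of 15) and the single changed lysyl oxidase (1 of 4). Laminins (4 of 11), network and basement-membrane collagens (3 of 14) and the remaining matrix genes (3 of 6) changed both ways. Of all genes tested 15.4% changed, 7.35% higher and 8.04% lower. The changed shares of integrin alpha chains (12.5%) and of FACIT, transmembrane and other collagens (13.3%) were under that. Higher shares were seen in network and basement-membrane collagens (21.4%), lysyl oxidases (25%), fibrillar collagens (27.3%) and laminins (36.4%). The remaining matrix genes (50%) and integrin beta chains (57.1%) had the highest. Whether the classes differ from each other was not tested. A further 24 members passed on the adjusted p but not on the fold change, 13 of them higher and 11 lower. The 62 tested members that were not called had log2 fold changes from -0.54 to 1.00.

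**Figure D1:**
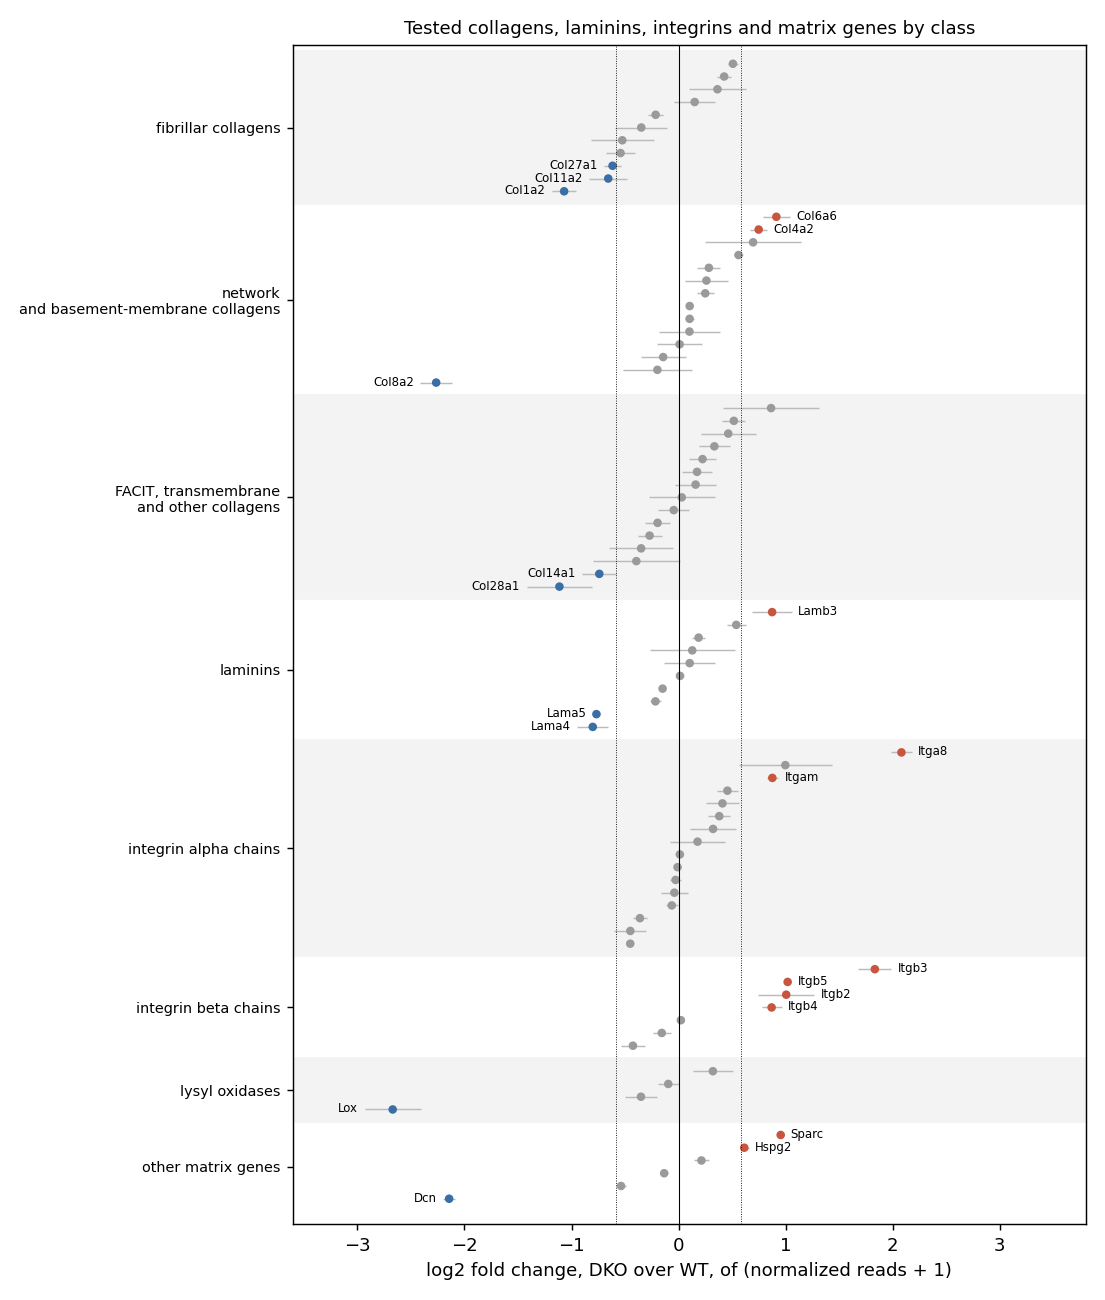
Log2 fold change (DKO over WT, of normalized reads + 1) of tested genes by class, 1 point a gene with its standard error from limma; red and blue points are genes called higher and lower, grey points are genes not called, and dotted lines mark a fold change of 1.5. Itga8 lies at 2.08, Itgb3 at 1.83 and Lox farthest to the left at -2.67, and the called integrin beta chains all lie to the right of 0.

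Markers of other cell types were read in the same libraries. The 16 markers of parietal and visceral endoderm, cells that make Col4a1, Col4a2, Lama1 and Sparc in quantity, summed to 608 to 648 normalized reads in WT and 588 to 667 in DKO, so the groups overlapped. In this list 4 of 12 tested were called (33.3%, beside 15.4% of all genes tested), 3 higher and 1 lower. Cubn was higher (log2 fold change 0.92 ± 0.13, limma, adjusted p = 1.34e-06) and Apob lower (log2 fold change -0.95 ± 0.12, limma, adjusted p = 2.02e-07), and Gata6 (1.18) and Hnf4a (1.90), chosen after their values were seen, were higher. Gata6 had few reads, at 13.8 ± 2.08 in WT and 32.9 ± 7.56 in DKO (SD, n = 3 each). So had Hnf4a, at 5.40 ± 2.75 in WT and 21.3 ± 4.06 in DKO. Ttr was at or near 0 in all libraries. The 10 trophoblast markers summed to 1819 to 1929.7 normalized reads in WT and 3329 to 3719 in DKO. Of 9 tested, 8 were called higher (88.9%, beside 7.35% of all genes tested), among them Gata3 (4.82) and Tfap2c (2.50). Gata3 had few reads in WT, at 3.25 ± 1.35, beside 116 ± 10.7 in DKO (SD, n = 3 each). Elf5 was at or near 0.

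The 9 endothelial and blood markers summed to 1505 to 1582 normalized reads in WT and 3043 to 3311 in DKO. Of 8 tested, 3 were called, all higher (37.5%, beside 7.35% of all genes tested called higher). They were Pecam1 (1.25), Tek (0.96) and, chosen after its values were seen, Kdr (2.01). Pecam1 alone was at 963 ± 31.3 in WT and 2301 ± 165 in DKO (SD, n = 3 each), most of the sum. Kdr had few reads, at 10.9 ± 4.59 in WT and 45.3 ± 9.36 in DKO. Cd34, Gata1 and Runx1 were not called. Cdh5 was at or near 0 and the leukocyte markers Ptprc and Spi1 were not called, with Ptprc at 13.9 ± 3.16 in WT and 10.5 ± 2.78 in DKO and Spi1 at 9.50 ± 2.67 in WT and 9.52 ± 3.31 in DKO (SD, n = 3 each). The trophoblast sum and the endothelial sum, the latter mostly Pecam1, were higher along with the members Lamb3, Itgb2, Itgb3, Itgb4 and Itgam. The part of such cells in those results was not tested. In bulk RNA more cells of a type and more RNA per cell cannot be told apart.

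Among the laminins Lama5 and Lama4 were lower in DKO, and Lamb3 was higher. Lama5, the alpha chain found under most epithelia, had the highest WT level of all laminin genes per kilobase of gene body and of exon. It measured 17556, 16729.5 and 17933 normalized reads in the WT libraries and 9724, 10132 and 10841 in the DKO libraries. Every DKO library lay below every WT library (log2 fold change -0.77 ± 0.03, limma, adjusted p = 3.28e-17). Its usual partners were not called. Lamc1, the common gamma chain, measured 8514, 8235 and 9075 normalized reads in the WT libraries and 8219, 8677 and 9167 in the DKO libraries, and the groups overlapped (log2 fold change 0.01 ± 0.03, limma, adjusted p = 0.77, 95% interval -0.06 to 0.08). Lamb1, the common beta chain, was at 8691 ± 94.8 in WT and 7835 ± 66.2 in DKO (SD, n = 3 each), with no overlap and a small difference (log2 fold change -0.15 ± 0.02, limma, adjusted p = 1.04e-05). Lamb2, another beta chain, was at 515 ± 27.2 in WT and 586 ± 26.9 in DKO (log2 fold change 0.19 ± 0.06, limma, adjusted p = 0.008).

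Lamb3, the beta chain of the epithelial trimer laminin-332, had few reads, with 27.9, 28.5 and 23.5 normalized reads in the WT libraries and 48.4, 54.6 and 45.6 in the DKO libraries, and rose without overlap (log2 fold change 0.87 ± 0.18, limma, adjusted p = 2.71e-04). Lama3, the alpha chain of that trimer, measured 764, 801 and 805 normalized reads in the WT libraries and 673, 666 and 701 in the DKO libraries. All its DKO values were under all its WT values, and the difference was short of the fold threshold (log2 fold change -0.22 ± 0.05, limma, adjusted p = 4.99e-04). The summed trophoblast markers given above were higher along with Lamb3, and their part in this result was not tested.

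Lama1, the alpha chain of the first laminin of the embryo, which is also laid down by parietal endoderm, measured 173, 159 and 183 normalized reads in the WT libraries and 252, 232 and 266 in the DKO libraries. The groups did not overlap, yet the change stayed under the fold threshold (log2 fold change 0.54 ± 0.09, limma, adjusted p = 9.26e-06). Without WT replicate 3 or without DKO replicate 2 it was called higher, at 0.59 in either case. Lama4, an alpha chain known from blood vessels, measured 88.1, 102 and 81.6 normalized reads in the WT libraries and 57.0, 51.0 and 46.7 in the DKO libraries and was lower (log2 fold change -0.80 ± 0.14, limma, adjusted p = 3.70e-05). Lama2, the muscle alpha chain, and Lamc3 had few reads and overlapping groups. Lama2 was at 22.6 ± 2.23 in WT and 24.8 ± 6.16 in DKO, and Lamc3 at 8.11 ± 3.93 in WT and 8.57 ± 3.06 in DKO (SD, n = 3 each).

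Levels of different genes can be set side by side only per length, and since the reads cover introns as well as exons both lengths are given. Per kilobase of gene body, Lama5 made up 98.5% ± 0.0570 in WT and 97.6% ± 0.117 in DKO of all laminin alpha chain reads (SD, n = 3 each). Per kilobase of exon the shares were 93.8% ± 0.242 in WT and 90.4% ± 0.403 in DKO. The ratio of Lama5 to Lama1 per kilobase of gene body was 257 ± 9.19 in WT and 104 ± 6.40 in DKO, with no overlap of the libraries. That of Lama5 to Lamc1 was 4.66 ± 0.1 in WT and 2.71 ± 0.0201 in DKO. Per kilobase of exon Lama5 had 1528 normalized reads and Lamc1 1041 on average in WT, and in DKO they had 898 and 1050.3, so that Lamc1 came first. Among beta chains Lamb1 led on either scale, with 73.4% ± 0.876 in WT and 68.5% ± 0.993 in DKO by gene body and 90.8% ± 0.339 in WT and 88.4% ± 0.472 in DKO by exon. An exact permutation test of a ratio, two-sided with 3 libraries against 3, cannot give a p under 0.1. Of 15 ratios between members computed in all, 14 gave that value, those named here included, and that of Col1a2 to Col1a1 gave 0.3.

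**Figure D2:**
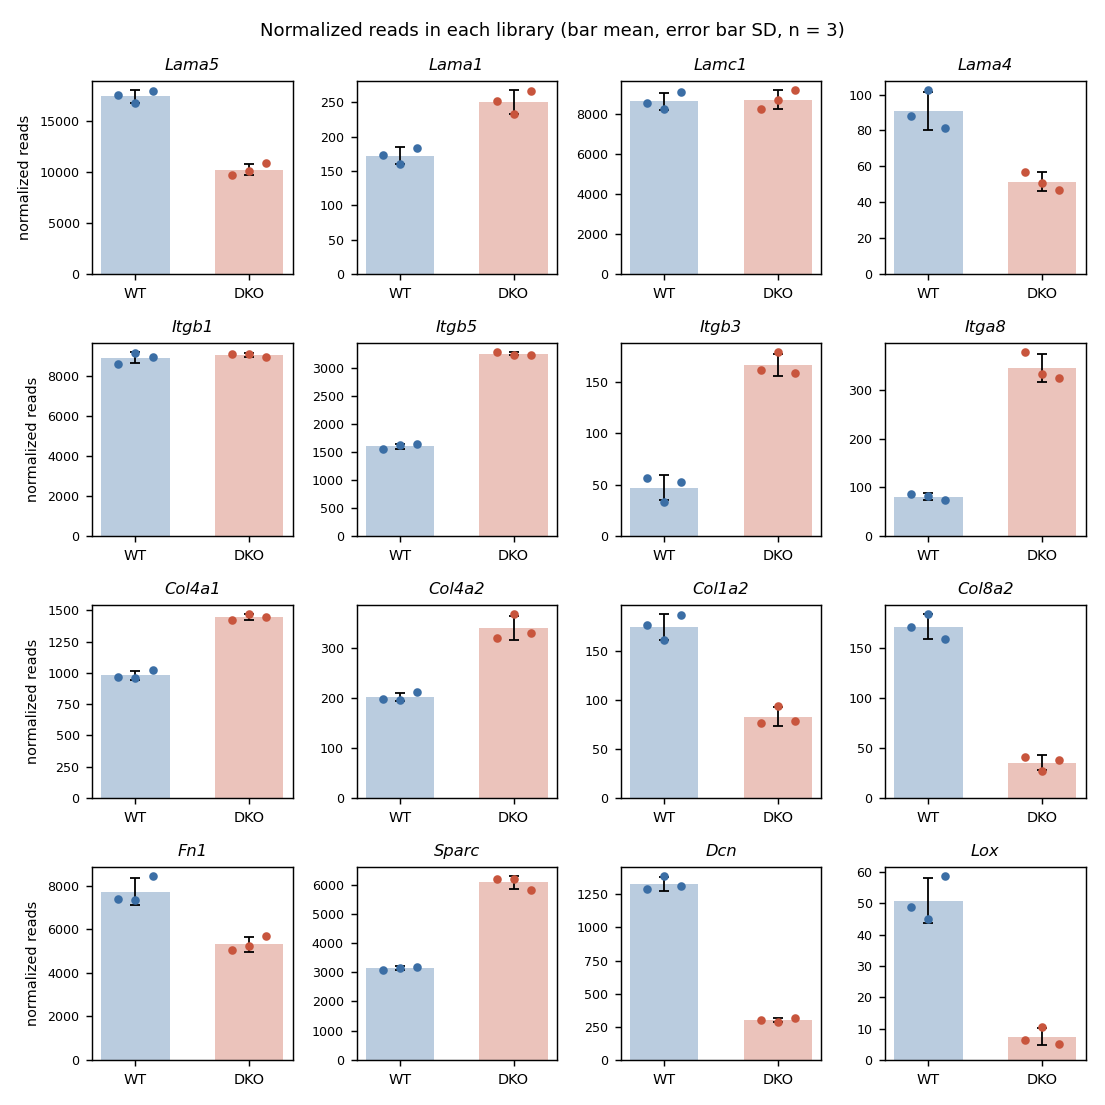
Normalized reads of 16 members in each library, as points, with bars for the group mean and error bars for the SD (n = 3); each panel has its own axis, which starts at 0. The WT and DKO points are apart in all panels but those of Lamc1 and Itgb1, where they overlap.

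Of the beta chains of integrins, Itgb2, Itgb3, Itgb4 and Itgb5 were higher in DKO and Itgb1 was not. Itgb1, the partner of most matrix-binding alpha chains, measured 8616, 9156 and 8967 normalized reads in the WT libraries and 9112, 9093 and 8923 in the DKO libraries. The groups overlapped, and the interval of the difference lies well inside the fold threshold (log2 fold change 0.02 ± 0.03, limma, adjusted p = 0.52, 95% interval -0.03 to 0.07). Itgb5, which pairs with the alpha chain Itgav to bind vitronectin, measured 1556, 1625 and 1635 normalized reads in the WT libraries and 3283, 3233 and 3241 in the DKO libraries. Its DKO values lay far above its WT values in every library (log2 fold change 1.02 ± 0.03, limma, adjusted p = 2.93e-19). Itgb3, which pairs with Itgav or with the platelet chain Itga2b, was low in WT and higher in DKO, with 55.9, 33.0 and 52.3 normalized reads in the WT libraries and 161, 179 and 159 in the DKO libraries (log2 fold change 1.83 ± 0.15, limma, adjusted p = 1.20e-10). Neither group reached the other.

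Itgb4, the partner of Itga6 in the hemidesmosome receptor for laminin-332, measured 118, 115 and 113 normalized reads in the WT libraries and 221, 204 and 208 in the DKO libraries and rose (log2 fold change 0.87 ± 0.09, limma, adjusted p = 1.32e-08). Itga6 itself measured 7241, 7682 and 7822 normalized reads in the WT libraries and 7895, 7616 and 7415 in the DKO libraries, with overlapping groups (log2 fold change 0.01 ± 0.03, limma, adjusted p = 0.76, 95% interval -0.05 to 0.07). Itgb2, the beta chain of leukocyte integrins, had few reads, with 21.0, 9.67 and 13.3 normalized reads in the WT libraries and 29.1, 26.3 and 32.1 in the DKO libraries. It was called higher (log2 fold change 1.01 ± 0.26, limma, adjusted p = 0.002). Itgb7 and Itgb8 were not called. Itgb7, the partner of Itga4 and Itgae, was at 201 ± 4.15 in WT and 180.4 ± 5.37 in DKO (log2 fold change -0.16 ± 0.08, limma, adjusted p = 0.12). Itgb8, which pairs with Itgav and releases active TGF-beta from its latent form, was at 166 ± 24.1 in WT and 123 ± 12.8 in DKO with no overlap and a difference under the fold threshold (log2 fold change -0.43 ± 0.11, limma, adjusted p = 0.003). Itgb6 had too few reads to test.

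Of the alpha chains, Itga8 changed most. This partner of Itgb1, a receptor for nephronectin, measured 86.0, 83.1 and 73.6 normalized reads in the WT libraries and 378, 333 and 326 in the DKO libraries and was higher in every DKO library (log2 fold change 2.08 ± 0.10, limma, adjusted p = 6.66e-16). The gene of its ligand, Npnt, a member of the basement membrane list named here for that reason after its values were seen, was also higher (log2 fold change 0.60 ± 0.11, limma, adjusted p = 3.38e-05). Itgam, the alpha chain of the leukocyte integrin with Itgb2, measured 414, 388 and 417 normalized reads in the WT libraries and 736, 756 and 745 in the DKO libraries (log2 fold change 0.88 ± 0.05, limma, adjusted p = 2.79e-13). The annotated gene Gm49368 covers 99.9% of the Itgam gene body on the same strand, so reads of the pair cannot be told apart. The alpha chains Itgad and Itgax, which lie next to Itgam on chromosome 7 and share its beta chain, had no more than 6 reads in a library. Itgal, a further partner of Itgb2 chosen after its values were seen, was at 122 ± 7.14 in WT and 159 ± 8.79 in DKO. Its groups did not overlap, and the difference was under the fold threshold (log2 fold change 0.38 ± 0.10, limma, adjusted p = 0.002).

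None of Itga3, Itga6, Itgav and Itga5, receptor chains with many reads, was called. Itga3, a laminin receptor chain, measured 5687, 5441 and 5709.6 normalized reads in the WT libraries and 4022, 4098 and 4190.3 in the DKO libraries. Its DKO values were all under its WT values, by less than the threshold (log2 fold change -0.45 ± 0.03, limma, adjusted p = 5.23e-13). Itgav was at 2187 ± 94.5 in WT and 2171 ± 15.2 in DKO, with overlapping groups (log2 fold change -0.01 ± 0.04, limma, adjusted p = 0.83, 95% interval -0.08 to 0.06). Itga5, the fibronectin receptor chain, was at 644 ± 38.9 in WT and 615 ± 20.2 in DKO and overlapped too (log2 fold change -0.06 ± 0.05, limma, adjusted p = 0.34). Itga10, a collagen receptor chain, was at 771 ± 97.0 in WT and 597 ± 26.1 in DKO (SD, n = 3 each), with no overlap and a difference under the threshold (log2 fold change -0.36 ± 0.07, limma, adjusted p = 5.13e-05). A further annotated gene on the same strand, Gm42957, covers 39.7% of the Itga10 gene body.

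Among alpha chains with fewer reads, Itga2b, the other partner of Itgb3, was at 52.6 ± 6.55 in WT and 70.2 ± 8.27 in DKO (log2 fold change 0.41 ± 0.15, limma, adjusted p = 0.027). Itga2, a collagen receptor chain, was at 3.82 ± 1.92 in WT and 8.44 ± 2.78 in DKO with overlapping groups (log2 fold change 1.00 ± 0.44, limma, adjusted p = 0.057). It was called higher without WT replicate 1, at 1.29, without DKO replicate 2, at 1.27, and by edgeR, at 1.13. Itga4, a receptor chain for fibronectin and Vcam1, was at 88.9 ± 11.8 in WT and 65.2 ± 13.3 in DKO (SD, n = 3 each) and overlapped (log2 fold change -0.45 ± 0.15, limma, adjusted p = 0.014), and was called lower without DKO replicate 3, at -0.60.

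Shares of the receptor chains differed between the groups. Per kilobase of gene body Itgb5 took 6.09% ± 0.0822 in WT and 11.3% ± 0.0796 in DKO of beta chain reads, and per kilobase of exon 16.4% ± 0.185 in WT and 27.9% ± 0.187 in DKO (SD, n = 3 each). Itgb1 held 85.1% ± 0.346 in WT and 79.3% ± 0.311 in DKO by gene body and 79.3% ± 0.278 in WT and 67.7% ± 0.280 in DKO by exon. The ratio of Itgb5 to Itgav per kilobase of gene body was 0.507 ± 0.0207 in WT and 1.03 ± 0.0151 in DKO. Among alpha chains, Itga3 held 43.3% ± 1.16 in WT and 35.8% ± 0.560 in DKO by gene body and Itga6 27% ± 1.14 in WT and 30.8% ± 1.13 in DKO. Itga3 was thus ahead of Itga6 in both groups on this scale. By exon length, Itga3 held 39.0% ± 1.04 in WT and 30.7% ± 0.648 in DKO and Itga6 33.3% ± 1.16 in WT and 36.2% ± 1.12 in DKO, and the order turned between WT and DKO.

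**Figure D3:**
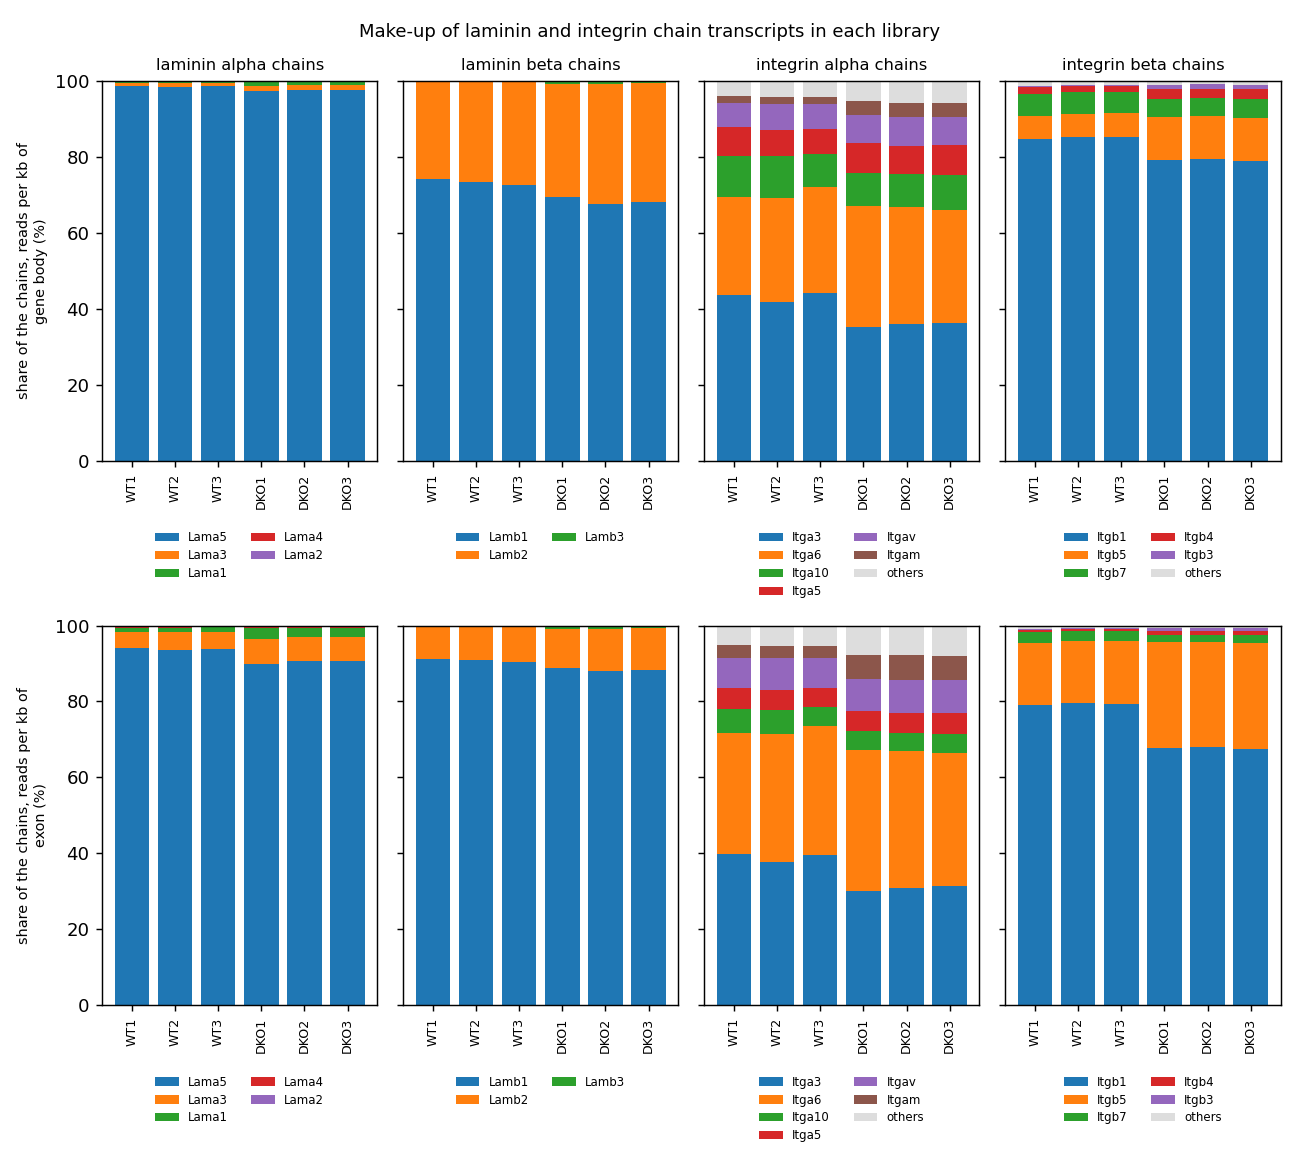
Share of each chain among the laminin alpha and beta and the integrin alpha and beta chains in each library, in percent of reads per kilobase of gene body (top) or of exon (bottom); colors are chains and grey holds the remaining ones. Lama5 holds most of the alpha chain reads in every library, and Itgb5 goes from 6.09% to 11.3% of beta chain reads by gene body, and the replicates of a group look alike.

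Of the type IV collagens, which form the network of basement membranes, Col4a2 was higher in DKO. It measured 198, 197 and 212 normalized reads in the WT libraries and 322, 369 and 332 in the DKO libraries, with no overlap (log2 fold change 0.75 ± 0.08, limma, adjusted p = 6.75e-09). Col4a1 measured 964, 956 and 1023 normalized reads in the WT libraries and 1421, 1469.9 and 1447 in the DKO libraries, again with no overlap, and just missed the fold threshold (log2 fold change 0.56 ± 0.04, limma, adjusted p = 9.31e-12). Without WT replicate 3 it was called, at 0.59. Both genes lie head to head on chromosome 8, with annotated starts at 11312826 on the minus strand for Col4a1 and 11312805 on the plus strand for Col4a2. Per kilobase of gene body Col4a1 exceeded Col4a2 by a ratio of 5.79 ± 0.0339 in WT and 5.08 ± 0.279 in DKO. Col4a5 and Col4a6, the pair on the X chromosome, had overlapping groups, Col4a5 at 29.2 ± 4.14 in WT and 26.2 ± 1.30 in DKO and Col4a6 at 13.1 ± 2.50 in WT and 11.6 ± 4.26 in DKO (SD, n = 3 each). Col4a3 and Col4a4 had too few reads to test.

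Per kilobase of gene body and of exon the highest collagen in WT was Col18a1, a basement membrane collagen whose end fragment is endostatin. It measured 27569, 28005 and 28881 normalized reads in the WT libraries and 29812, 30319 and 30599 in the DKO libraries. The groups did not overlap, and the difference was small (log2 fold change 0.10 ± 0.02, limma, adjusted p = 3.07e-04). It made up 74.6% ± 0.552 in WT and 74.3% ± 0.110 in DKO of all collagen reads per kilobase of gene body. Col8a2, a short-chain collagen of the corneal basement membrane, was the collagen that fell most, with 171, 184 and 159 normalized reads in the WT libraries and 40.9, 26.8 and 38.4 in the DKO libraries (log2 fold change -2.26 ± 0.15, limma, adjusted p = 9.59e-13). Neither group reached the other, and its partner chain Col8a1 had too few reads to test.

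In the type VI microfibril collagens, Col6a6 alone was called. It measured 62.3, 70.6 and 63.5 normalized reads in the WT libraries and 143, 115 and 116 in the DKO libraries and rose (log2 fold change 0.91 ± 0.13, limma, adjusted p = 1.04e-06). Its neighbours on chromosome 9, Col6a5 and Col6a4, were not called. Col6a5 was at 875 ± 26.8 in WT and 939 ± 15 in DKO (log2 fold change 0.10 ± 0.04, limma, adjusted p = 0.054), and Col6a4 at 210.4 ± 5.8 in WT and 250.3 ± 10.7 in DKO (log2 fold change 0.25 ± 0.08, limma, adjusted p = 0.010). Col6a1 and Col6a2, the chains of most type VI trimers, had few reads, with Col6a2 at 25.5 ± 2.27 in WT and 25.6 ± 1.84 in DKO and Col6a1 at 4.70 ± 3.38 in WT and 7.38 ± 1.80 in DKO (SD, n = 3 each). Col7a1, the anchoring fibril collagen, was at 116 ± 9.16 in WT and 142 ± 10.1 in DKO (log2 fold change 0.28 ± 0.11, limma, adjusted p = 0.028).

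Of the fibrillar collagens Col1a2, Col27a1 and Col11a2 were lower in DKO. Col1a2, a chain of type I collagen, measured 176, 160.5 and 186 normalized reads in the WT libraries and 75.9, 93.5 and 78.8 in the DKO libraries (log2 fold change -1.07 ± 0.11, limma, adjusted p = 9.63e-09). Col1a1, its partner, was at 21.4 ± 5.12 in WT and 15 ± 5.59 in DKO (SD, n = 3 each) and its groups overlapped (log2 fold change -0.53 ± 0.29, limma, adjusted p = 0.14). Col1a2 lies on chromosome 6 (4505493 to 4541544, GRCm38), as does Col28a1 (7997808 to 8192617), which was lower too (log2 fold change -1.11). Whether the lines differ over this part of the chromosome was not tested. Col27a1, a collagen of cartilage, measured 348, 335 and 303 normalized reads in the WT libraries and 198, 213 and 231 in the DKO libraries (log2 fold change -0.62 ± 0.08, limma, adjusted p = 3.27e-07). The call was lost without WT replicate 1, at -0.58, and without DKO replicate 1, at -0.56. Col11a2, chosen after its values were seen, was at 71.4 ± 5.58 in WT and 46.1 ± 13.2 in DKO (log2 fold change -0.66 ± 0.18, limma, adjusted p = 0.003), and lost its call without DKO replicate 1, at -0.46. Its partner Col11a1 was at 109 ± 17.7 in WT and 73.9 ± 5.23 in DKO, under the fold threshold (log2 fold change -0.54 ± 0.13, limma, adjusted p = 0.001), and was called without WT replicate 2, WT replicate 3 or DKO replicate 1, at -0.59, -0.63 and -0.60.

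Col5a1, Col5a2 and Col2a1 passed on the adjusted p but not on the fold change. Col5a1, which starts type I fibrils, measured 650.1, 676 and 649.6 normalized reads in the WT libraries and 873, 953 and 986 in the DKO libraries, all DKO values being above the WT values (log2 fold change 0.51 ± 0.05, limma, adjusted p = 3.20e-09). Its partner Col5a2 measured 391, 417 and 422 normalized reads in the WT libraries and 349.8, 329 and 383 in the DKO libraries and had all its DKO values below them (log2 fold change -0.21 ± 0.07, limma, adjusted p = 0.010). The ratio of Col5a1 to Col5a2 per kilobase of gene body was 1.35 ± 0.0540 in WT and 2.24 ± 0.180 in DKO (SD, n = 3 each). Col2a1, the cartilage collagen, was at 385 ± 27.4 in WT and 516 ± 12.3 in DKO (log2 fold change 0.43 ± 0.06, limma, adjusted p = 2.19e-06). Col5a3 was at 35.6 ± 5.76 in WT and 39.7 ± 7.05 in DKO, and its groups overlapped.

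Of the FACIT, transmembrane and other collagens, mostly at low values, Col14a1 and Col28a1 were lower. Both were chosen after their values were seen. Col14a1, a collagen on the surface of fibrils, measured 70.4, 58.0 and 69.9 normalized reads in the WT libraries and 40.4, 37.8 and 38.9 in the DKO libraries (log2 fold change -0.74 ± 0.16, limma, adjusted p = 3.05e-04). Col28a1 measured 14.5, 22.8 and 25.6 normalized reads in the WT libraries and 11.8, 6.30 and 9.33 in the DKO libraries, the lowest values of any collagen called (log2 fold change -1.11 ± 0.31, limma, adjusted p = 0.003). Col9a2, a chain of the type IX collagen that coats type II fibrils, had the highest WT level of this class per kilobase of gene body and of exon. Its values were 101 ± 9.49 in WT and 144 ± 2.05 in DKO (SD, n = 3 each), and the difference missed the threshold (log2 fold change 0.52 ± 0.11, limma, adjusted p = 2.43e-04). Without WT replicate 2 it was called, at 0.59. Its partners Col9a3 and Col9a1 were not called, Col9a3 at 87.7 ± 19.4 in WT and 109.8 ± 16.4 in DKO and Col9a1 at 3.68 ± 1.82 in WT and 7.36 ± 2.61 in DKO. Col17a1, the hemidesmosome collagen, was at 75.7 ± 11.8 in WT and 85.0 ± 6.87 in DKO with overlapping groups (log2 fold change 0.17 ± 0.14, limma, adjusted p = 0.31).

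Lox, the enzyme that crosslinks collagen and elastin, fell further than any other member. It measured 48.9, 45.0 and 58.7 normalized reads in the WT libraries and 6.46, 10.5 and 5.18 in the DKO libraries (log2 fold change -2.67 ± 0.26, limma, adjusted p = 2.63e-09). Every DKO library lay far below every WT library, on few reads. The other lysyl oxidases were not called. Loxl1 was at 203 ± 25.7 in WT and 189.6 ± 21.3 in DKO (log2 fold change -0.10). Loxl2 was at 30.2 ± 1.15 in WT and 38.2 ± 4.94 in DKO (0.32), and Loxl3 at 66.5 ± 6.40 in WT and 51.9 ± 3.68 in DKO (-0.35). The Loxl2 gene body is covered to 87.6% by an antisense gene, and that of Loxl3 meets Htra2, also on the opposite strand. Host values mostly did not hold the reads of opposite-strand genes in the check of nested genes given below.

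Dcn, the gene of decorin, a small proteoglycan that binds collagen and TGF-beta, measured 1289, 1387 and 1312 normalized reads in the WT libraries and 302, 283 and 316 in the DKO libraries. The groups were far apart (log2 fold change -2.14 ± 0.05, limma, adjusted p = 1.37e-21). Fibroblasts make Dcn, Col1a2 and Lox. The 12 fibroblast markers summed to 672 to 730.1 normalized reads in WT and 514 to 591 in DKO, with no overlap. None of the 6 tested was called by limma, edgeR or DESeq2, with 1 at an unadjusted p under 0.05, Fbn1 (log2 fold change -0.53 ± 0.07, limma, adjusted p = 3.51e-07). Fbn1 alone was at 456 ± 35.3 in WT and 315 ± 18.4 in DKO (SD, n = 3 each), most of the sum. By limma 15.4% of all genes tested were called. Leaving out WT replicate 1 or DKO replicate 2 gave 1 call in this list. Postn, Prrx1, S100a4 and Fap were at or near 0 in every library, and the part of such cells was not tested. Fn1, the gene of fibronectin, measured 7418, 7340.1 and 8455 normalized reads in the WT libraries and 5037, 5230.2 and 5712 in the DKO libraries. All DKO values were under all WT values, but the fold change fell short of the threshold (log2 fold change -0.54 ± 0.04, limma, adjusted p = 3.22e-11), except without DKO replicate 3, when it was called at -0.59. Vtn, the gene of vitronectin, had too few reads to test.

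Of the other basement membrane genes Sparc and Hspg2 were higher in DKO and the nidogens were not called. Sparc, a calcium-binding protein of basement membranes that binds collagen, measured 3069, 3141 and 3191 normalized reads in the WT libraries and 6189, 6205 and 5819.9 in the DKO libraries (log2 fold change 0.95 ± 0.03, limma, adjusted p = 1.82e-19). Hspg2, the gene of perlecan, measured 3254, 3055 and 3369.8 normalized reads in the WT libraries and 4525, 4935 and 5373 in the DKO libraries (log2 fold change 0.61 ± 0.04, limma, adjusted p = 3.52e-12). The groups were apart for both. Hspg2 lost its call without WT replicate 2, at 0.57, and without DKO replicate 3, at 0.55. The nidogens, which link laminin to type IV collagen, overlapped between the groups. Nid2 was at 5558 ± 235 in WT and 5063 ± 231 in DKO (log2 fold change -0.13 ± 0.03, limma, adjusted p = 0.001), and Nid1 at 394 ± 44.3 in WT and 456 ± 19.1 in DKO (log2 fold change 0.21 ± 0.07, limma, adjusted p = 0.013). Nid2 exceeded Nid1 per kilobase of gene body by a ratio of 17.5 ± 1.45 in WT and 13.7 ± 1.16 in DKO (SD, n = 3 each). The summed endoderm markers given above overlapped between the groups, with Cubn, Gata6 and Hnf4a called higher and Apob lower. The paper counts Sparc itself among visceral endoderm markers activated in DKO EpiLCs. The part of such cells in the higher Sparc, Hspg2 and Col4a2 was not tested.

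The pairs of neighbouring members given here were chosen after their values were seen. Col6a6 (chromosome 9, 105687809 to 105828160, minus strand, GRCm38) and Col6a5 (chromosome 9, 105856078 to 105960643, minus strand) are 27.9 kb apart, with log2 fold changes of 0.91 and 0.10. Col4a1 (chromosome 8, 11198423 to 11312826, minus strand) and Col4a2 (chromosome 8, 11312805 to 11449287, plus strand), whose annotated first exons overlap, had 0.56 and 0.75. In each pair a single gene was called, Col6a6 and Col4a2.

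Genes that act with these proteins were counted from lists of partners. In the basement membrane list 8 of 23 tested genes changed (34.8%, beside 15.4% of all genes tested), all of them higher (beside 7.35%), and the median log2 fold change of the list was 0.37. Bcam, a receptor for the laminin chain of Lama5, measured 2712, 2714 and 2832 normalized reads in the WT libraries and 4368, 4448 and 4339 in the DKO libraries (log2 fold change 0.67 ± 0.03, limma, adjusted p = 2.63e-16). Frem2, which joins epithelia to the matrix in the embryo, measured 378, 348 and 322 normalized reads in the WT libraries and 695, 728 and 795 in the DKO libraries (log2 fold change 1.08 ± 0.06, limma, adjusted p = 1.26e-13). The groups were apart for both genes. In the adhesion complex list, the proteins that tie integrins to actin, 3 of 25 changed (12%, beside 15.4% of all genes), 2 higher and 1 lower, with a median of 0.12. Parva rose (log2 fold change 1.16 ± 0.13, limma, adjusted p = 3.11e-08) and Tns2 fell (log2 fold change -0.90 ± 0.07, limma, adjusted p = 2.86e-11). Tgfb1i1, chosen after its values were seen, was the other (0.95).

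In the collagen assembly list, the enzymes and chaperones of procollagen, 5 of 25 changed (20%, near the 15.4% of all genes tested), 2 higher and 3 lower, with a median of -0.17. Tll1, a tolloid protease that cuts procollagen and chordin, measured 305, 337 and 281 normalized reads in the WT libraries and 117, 100.3 and 85.5 in the DKO libraries and fell without overlap (log2 fold change -1.60 ± 0.11, limma, adjusted p = 1.04e-12). The others, chosen after their values were seen, were Bmp1 (0.81) and P4ha3 (0.75), which were higher, and Tll2 (-0.72) and Adamts2 (-0.67), which were lower. Among matrix proteases and their inhibitors 4 of 21 changed (19%, likewise near 15.4%), 2 higher and 2 lower, with a median of -0.07. Mmp11 rose (log2 fold change 0.80 ± 0.06, limma, adjusted p = 1.14e-11) and Mmp16 fell (log2 fold change -0.74 ± 0.11, limma, adjusted p = 4.04e-06). Timp4, again chosen after its values were seen, was higher too (0.90).

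**Figure D4:**
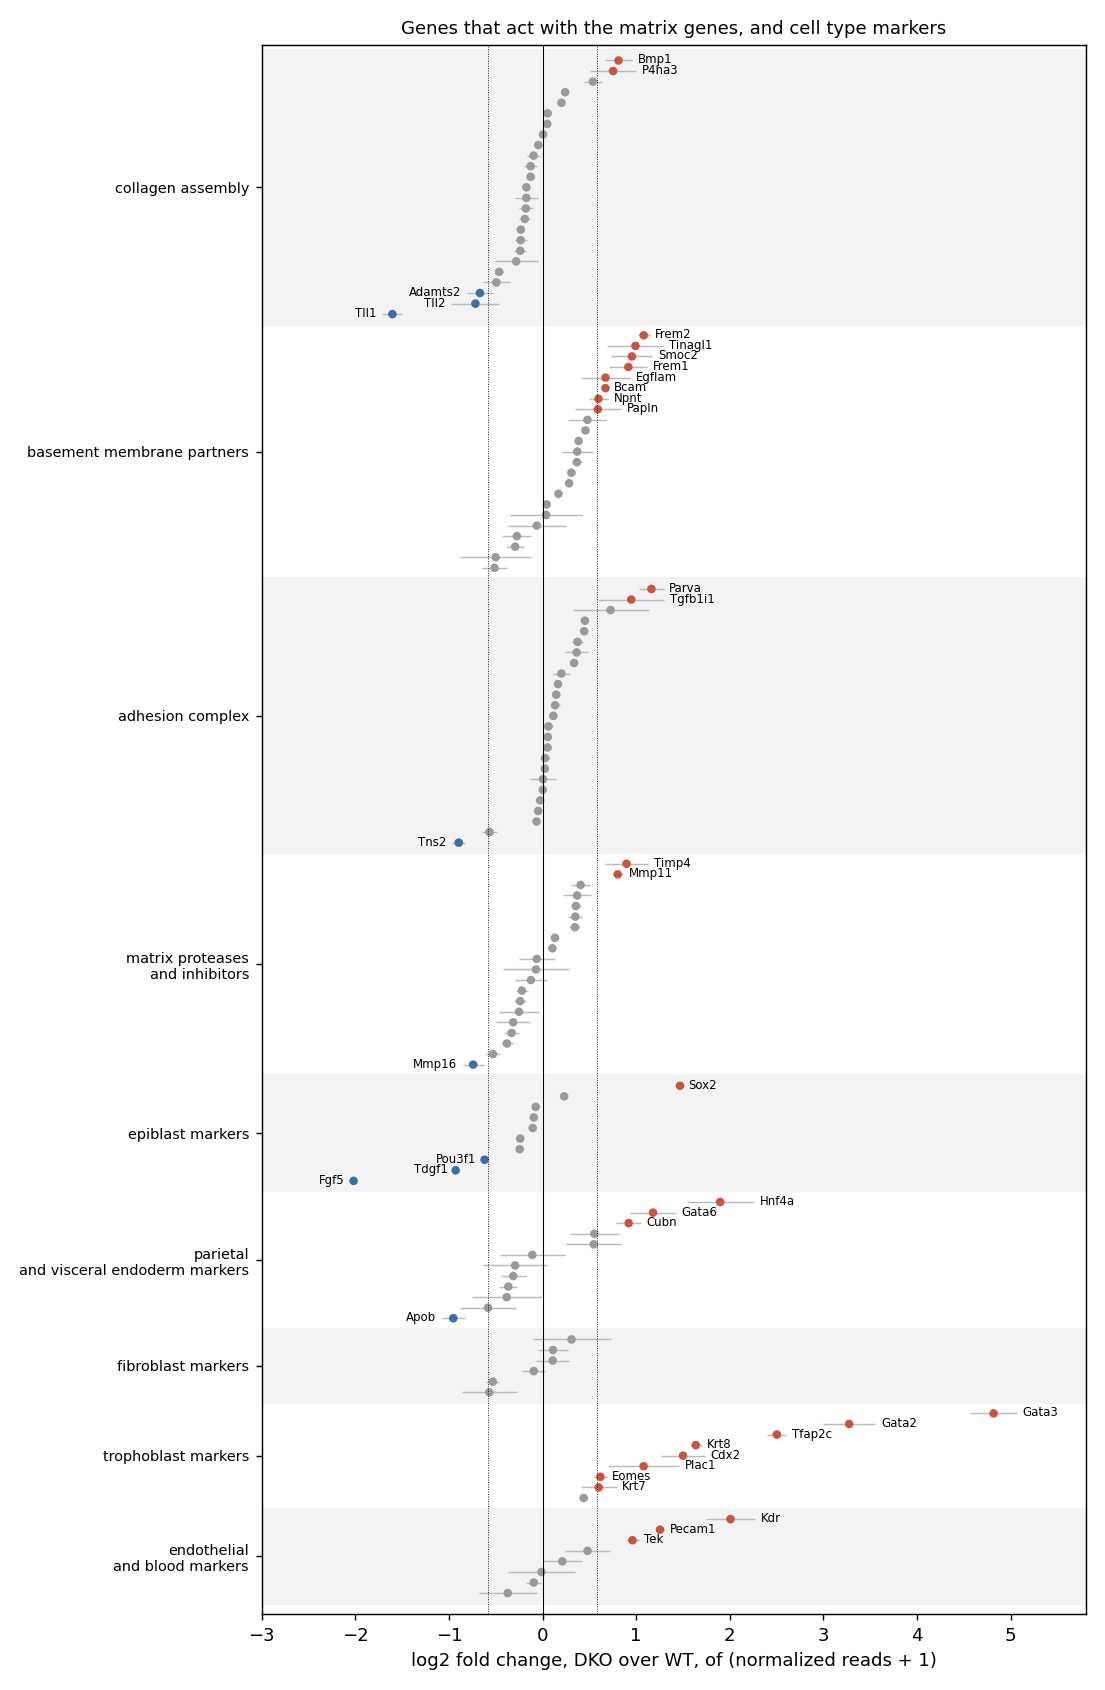
Log2 fold change (DKO over WT, of normalized reads + 1) of the tested genes of 4 partner lists and 5 marker lists, 1 point a gene with its standard error; red and blue points are genes called higher and lower and dotted lines mark a fold change of 1.5. The called genes of the basement membrane and trophoblast lists all lie to the right, up to 1.08 for Frem2 and 4.82 for Gata3.

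How reads were assigned touches some members. Of 19 genes with at least 500 normalized reads in WT that lie within an intron of another gene on the same strand, 18 had a host value at or above their own. On opposite strands this held for 6 of 27. The value of a host gene can thus hold the reads of a gene nested in it on its strand. Itga1, a collagen receptor chain, spans Pelo in this way, at 761 ± 51.7 in WT and 746 ± 20.2 in DKO (SD, n = 3 each). After Pelo was taken off, 133 ± 1.38 and 169 ± 2.19 remained, with no overlap. A further annotated coding gene on the same strand, Gm49395, covers 44.8% of the Itga1 gene body, and its reads were not taken off. In all, 53 members overlap another annotated gene, 14 of them a coding one. Members with several entries were read from the entry with the most reads. Of 6 further entries with values of their own that were tested, none differed in its call.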

How the data were processed

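Ribosomal RNA-depleted, stranded total RNA libraries of 3 WT and 3 DKO EpiLC differentiations were sequenced paired end (75 cycles). The authors removed ribosomal reads with Bowtie2, aligned to mm10 with STAR, removed duplicates with SAMtools and counted reads over refGene gene bodies (versions not given in the sources used here). The table they deposited holds a signal, reads divided by a size factor for each library. Dividing by the value of 1 read gave whole reads, within 0.01 of a read, for 100% of values in each library (size factors 1.76 to 1.93). Their table of DESeq2 comparisons (means, fold changes, p-values) was not used. Of 33812 rows, 138 without a symbol (0.517% of reads) were left out, and the row with the highest total stood for each of 24288 symbols.

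Genes passing edgeR 4.0.16 filterByExpr on the recovered reads (17038) were tested with limma 3.58.1 (R 4.3.3, variance trend) on log2(value + 1), which understates changes of low genes. Called genes had a Benjamini-Hochberg adjusted p under 0.05 and a fold change over 1.5. Count tests on the recovered reads called 2638 genes with edgeR and 2475 with DESeq2 1.42.0, beside 2623 with limma. The limma fit alone was tested on simulated data. Errors cover replicate spread only, and reads carry no molecular identifiers. No pair of libraries agreed within sampling noise.

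Members, lists and the naming rule were chosen with earlier results of these data known. Named were, per class, changed members averaging 100 normalized reads or more in a group (at most 8), the 3 with the highest WT level per kilobase of gene body, their partner chains, the single matrix genes, and the 2 most changed genes of each list at that level; other genes are marked. Some genes that the counts include are not reported here. Lengths and positions came from GENCODE vM21 and RefSeq (GRCm38). Alternatives were other tests and scalings, pseudocounts, filters, thresholds, row choices, a replicate block and leaving out each library.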

Additional observations from a re-analysis of the deposited data

How the results depend on the processing

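The fold threshold moved the counts most. Without it 9098 genes passed, 46 of them members (25 higher and 21 lower), with 63 genes of the partner lists. Testing against that fold (1.5) rather than 0 called 1115 genes, 12 members (7 higher and 5 lower) and 5 partner genes, since it asks for more than a point estimate past the limit. It did not call Col11a2, Col14a1, Col27a1, Col28a1, Col4a2, Col6a6, Hspg2, Itgb2, Lama4 and Lamb3. Leaving out 1 library at a time gave 2529 to 2610 genes, 21 to 25 members (11 to 14 higher, 9 to 12 lower) and 16 to 21 partner genes. With a replicate block the counts were 2602 genes and 22 members, and the block lost or added no member. Same-numbered libraries did not deviate together (correlations -0.029 to 0.036 over 11930 genes). The count tests, TMM scaling and the row choices kept all 22 called members, edgeR and no filter on low values added Itga2, and a pseudocount of 10 lost Col11a2. No called member turned its direction under any of the 17 alternatives. Values near 0 changed sign when 1 library was left out, over a log2 range of -0.021 to 0.0347 for Itga6, -0.00298 to 0.0408 for Itgb1, -0.0279 to 0.0256 for Itgav, -0.0264 to 0.0523 for Lamc1, -0.256 to 0.426 for Lamc3, -0.0341 to 0.315 for Lama2 and -0.0456 to 0.0754 for Col6a2. At this depth members with few reads, such as Col6a1, had standard errors of up to 0.45 on the log2 scale, so a change near the threshold was not detectable in them, and no protein was measured.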
